A study of Mus musculus with 6 samples.

Results

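Matrix metalloproteinases (MMPs), the related ADAM and ADAMTS proteases and the tissue inhibitors of metalloproteinases (TIMPs) were examined in gonads of male mouse embryos. The members were all genes of the deposited table whose symbol begins with Adam or Mmp or Timp followed by a digit, or with Adamts, which includes the Adamts-like genes. This gave 58 of 16862 genes: 18 Adam, 19 Adamts, 5 Adamts-like, 12 Mmp and 4 Timp genes. Of these, 54 passed a filter of at least 10 in at least 3 libraries and were tested, as were 15116 genes in all.

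RNA sequencing compared 3 wild-type C57BL/6 libraries, here WT1, WT3 and WT4, with 3 libraries, KO5, KO7 and KO8, from C57BL/6 embryos labelled L/H-Pgds-/-, a knockout of the L- and H-type prostaglandin D synthases; knockout below means the libraries with this label. All were male gonads at E13.5, a stage when testis cords have formed, and the labels name no agent and no Cre or transgene. They describe the gonads as taken from 6 different littermates, without saying which embryos shared a litter, whether gonads were pooled or which part of each gene was deleted. The comparison asks which transcripts differ between gonads with these labels.

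MMPs are zinc proteases, made as inactive precursors, that cleave collagens and other matrix proteins. ADAMs are membrane-anchored relatives that release the outer parts of cell-surface proteins, while the secreted ADAMTS proteases act on matrix proteoglycans and procollagens. TIMPs bind the active site and block it. In the fetal testis, these families act in a tissue where cords, basement membranes and vessels are being laid down.

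The values are upper-quartile normalised pseudo-counts, fractional numbers that the authors made from their reads. They are scaled for comparison of a gene between libraries and, divided by transcript length, roughly between genes. Over all genes, however, the change between genotypes went with transcript length (below), which limits the comparison between libraries. The values are not reads, so the depth is unknown. They summed to between 22881124 and 23734462 in the WT libraries and to between 21657342 and 21846849 in the KO libraries, so every KO total was below every WT total. The targeted gene Ptgds stood at 6560 to 8712 in the WT libraries and at 2.94 to 15.2 in the KO libraries, so this gene was nearly lost. Hpgds went against the label, at 45.0 to 55.03 (WT) and at 87.3 to 103.7 (KO), a rise by limma's test (log2 change 0.90, adjusted p = 0.00853; 0.60 and 0.0917 with the length and GC trend removed). Since the deleted part of Hpgds is not given, its level does not check the genotype, and loss of the H-type synthase was not checked here. All 5 Sertoli cell, 5 germ cell and 5 fetal Leydig cell markers were present, with summed levels of 71586 to 99666, 16854 to 24988 and 65156 to 107076 in wild type and of 58260 to 84785, 18210 to 32674 and 48764 to 69394 in knockout. WT1 stood apart: its skeletal muscle markers (Myod1, Myog, Actn2, Ckm and Myh3) summed to 13876 against 535 to 928 in the other 5 libraries, and its smooth muscle markers to 25813 against 7875 to 14063. Its erythroid markers summed to 37366 against 83973 to 140611. Counts of changed members are therefore also given without WT1. The KO libraries differed among themselves too: KO7 held the highest germ cell sum, 32674, and the lowest Sertoli cell sum, 58260. Most of the Sertoli cell sum is Amh, at 36644 in KO7 and at 51273 to 72634 in the other 5 libraries. In KO7, Sox9 (2190) and Cyp26b1 (3750) were above every WT library. Dhh (3565) was lowest there, and Aard (12112) lay within the WT range. Sums that were lower in every KO library than in every WT library were those of smooth muscle (7875 to 8890 in the KO libraries), macrophages (681 to 825 against 866 to 1169), neutrophils (below) and the granulosa list (2936 to 3151 against 4617 to 5253). Wnt4 (means 3807 and 2183 in WT and KO) and Rspo1 (1059 and 723) made up most of the last sum. The other 3 genes of that list, Foxl2, Fst and Irx3, averaged at most 66.9 in either group and had no call by limma's test (adjusted p from 0.315 to 0.984). This sum therefore does not show that granulosa cells were present. The part of all these sums in the changes of the members was not tested. In bulk tissue, fewer cells of a type and less RNA per cell cannot be told apart.

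The members went both ways, and 14 of 54 passed the test in knockout against wild type. Of the 54, 10 (18.5%) were higher in knockout, close to the 17.3% of all genes that were, and 4 (7.41%) were lower, where 17.0% of all genes were. At an unadjusted p under 0.05 the number was 19 members, and 45.2% of all genes. The 10 that rose were Adamts6, Adamts12, Mmp28, Adamts20, Adam9, Adamts9, Adam10, Adamts1, Adam19 and Adam17, and the 4 that fell were Timp1, Mmp23, Adamts14 and Mmp11. The test was limma's moderated test on log2(value + 1), two-sided, with p-values adjusted by Benjamini and Hochberg's method across 15116 genes and a threshold of 0.05, and every adjusted p below comes from it. The median log2 change was 0.11 over the 54 members and -0.03 over all genes. Libraries of the genotypes did not overlap for 17 members (31.5%) and for 50.3% of all genes. The KO libraries were all above in 10 of these (24.7% of all genes) and all below in 7 (25.6%). Without WT1, 14 members passed (29.8% of all genes), 11 higher (15.5%) and 3 lower (14.3%), and 9 and 2 of these were among the 10 and 4 above. With values scaled to equal totals, which raised the median log2 change of all genes by 0.10, 11 members were higher and 2 lower, against 3507 (23.2%) and 1687 (11.2%) of all genes. Without WT4 the counts were 6 and 1, where 10.8% of all genes were higher and 9.24% lower. With library weights they were 14 and 8, where 23.5% and 24.4% of all genes passed.

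**Figure D1:**
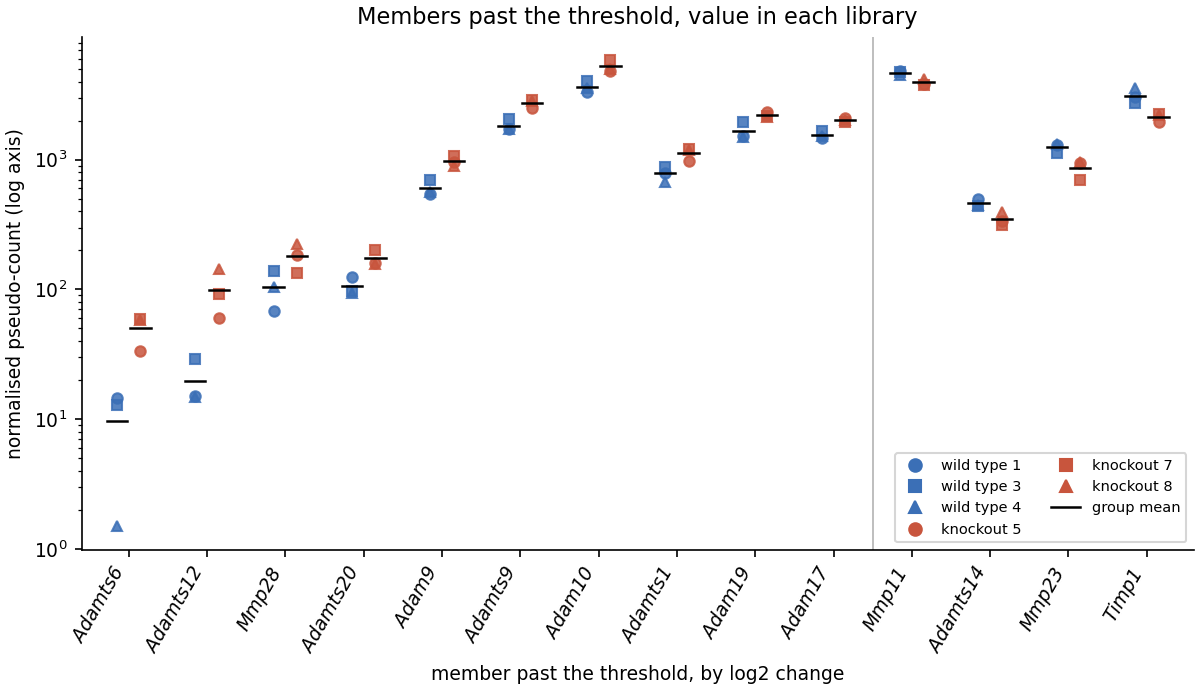
Normalised pseudo-counts (log axis) of the 14 members past the threshold, 1 point per library and a bar at each group mean, ordered by log2 change with the 4 lower members to the right of the grey line. Adamts6 and Adamts12 had the steepest rises, from wild-type means of 9.61 and 19.6, and Mmp28 was the member in which the genotypes overlapped.

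The members that rose had long transcripts and those that fell mostly short ones, as among all genes. The median length of the longest protein-coding transcript was 5634 nt for the 10 higher members and 1861 nt for the 4 lower ones, against 4658 nt for all 54. Over all genes it was 5188 nt for higher, 1710 nt for lower and 3121 nt for all tested. Divided at 4000 nt, a boundary chosen after the values were seen, 9 of 34 members with the longer transcripts were higher (26.5%) and 1 lower (2.94%), where 38.2% and 2.66% of all genes of that length were. Of the 20 members with shorter transcripts, 1 was higher and 3 lower, where 7.06% and 25.3% of all such genes were. After the trend of the values with transcript length and GC content was removed from each library, 3 of the 10 calls upward were kept, those of Adamts12, Mmp28 and Adam9, where 6.07% of 14449 genes were higher. None of the 4 calls downward was kept: 0 members were lower by limma's test, where 6.64% of all genes were. At an unadjusted p under 0.05, 5 members and 14.9% of all genes were lower. With WT1 also left out, 4 members were higher, these 3 and Adamts6 (5.83% of all genes), and 0 were lower (6.09% of all genes). At an unadjusted p under 0.05, 5 members and 13.8% of all genes were then lower. Removal turned the sign of 12 members, 9 of them positive before, and none of the 12 passed the threshold afterwards. What part transcript length and GC content take in each change was not tested beyond this removal.

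**Figure D2:**
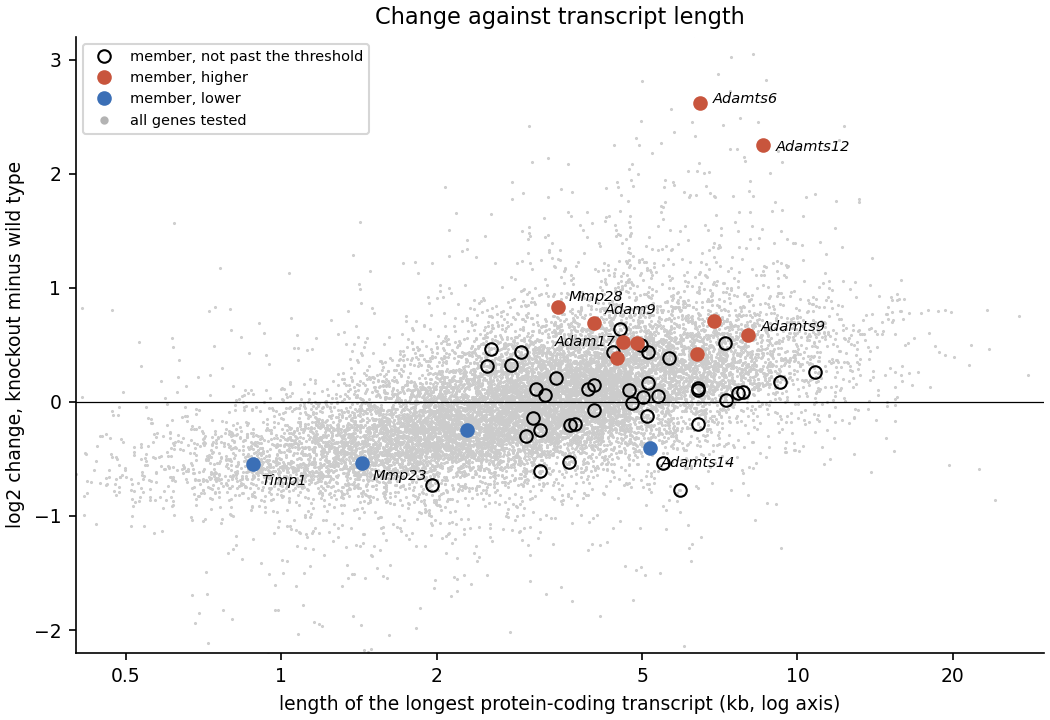
Log2 change of knockout against wild type plotted against transcript length (log axis) for 14449 tested genes (grey) and the 54 members (circles, filled where past the threshold); 27 genes outside the axes are not drawn. Adamts6 and Adamts12 lie far above the other members of similar length, while Timp1 and Mmp23 lie among the many short genes with negative values.

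Promoter sequences of 4 members past the threshold are shown because these genes carry the main contrasts: the largest kept rise (Adamts12), the sheddase Adam10, the proteoglycanase Adamts1 and the inhibitor Timp1, the deepest fall. Each is the 250 bases before the RefSeq start in GRCm38.p6, 5′ to 3′ on the gene's strand. Capitals mark matches, on either strand, to the GC box GGGCGG and the TATA box TATAAA. No match to TGANTCA, the site of the factor AP-1 known from protease and TIMP promoters, was found in these 4.
Adamts12 (chr15:11064523-11064772, plus strand): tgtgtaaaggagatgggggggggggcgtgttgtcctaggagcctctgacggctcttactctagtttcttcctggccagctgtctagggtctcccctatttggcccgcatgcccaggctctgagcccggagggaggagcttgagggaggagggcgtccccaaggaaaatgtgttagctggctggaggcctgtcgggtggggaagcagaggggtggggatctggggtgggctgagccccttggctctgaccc
Adam10 (chr9:70678732-70678981, plus strand): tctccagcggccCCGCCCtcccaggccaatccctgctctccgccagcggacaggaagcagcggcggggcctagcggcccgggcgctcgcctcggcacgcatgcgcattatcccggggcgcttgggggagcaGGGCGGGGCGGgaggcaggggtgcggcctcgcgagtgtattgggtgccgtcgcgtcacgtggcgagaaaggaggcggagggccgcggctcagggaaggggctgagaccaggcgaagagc
Adamts1 (chr16:85803114-85803363, minus strand): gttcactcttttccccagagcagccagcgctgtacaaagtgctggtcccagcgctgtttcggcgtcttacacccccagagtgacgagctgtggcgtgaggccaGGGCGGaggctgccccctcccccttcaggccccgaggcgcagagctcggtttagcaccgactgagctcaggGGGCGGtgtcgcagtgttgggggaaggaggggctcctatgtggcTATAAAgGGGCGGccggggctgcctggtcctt
Timp1 (chrX:20869916-20870165, plus strand): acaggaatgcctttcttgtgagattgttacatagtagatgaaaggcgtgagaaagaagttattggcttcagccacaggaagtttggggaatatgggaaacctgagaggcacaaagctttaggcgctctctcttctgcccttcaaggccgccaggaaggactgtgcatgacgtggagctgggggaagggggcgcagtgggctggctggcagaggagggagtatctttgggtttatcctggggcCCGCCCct
Adamts1 held both elements, a TATA box beginning 32 bases before the start and 3 GC boxes, and Adam10 held 3 GC boxes, of which the later pair overlap. Timp1 held 1 GC box beginning 8 bases before the start, and the Adamts12 window held no match. RefSeq starts were not at hand here for some members, among them Adam9, Adamts6 and Mmp2. For 34 of the 58 members, 37 starts were at hand. A GC box was present in 23 of these (62.2%) and in 32.7% of all 32851 windows, a TATA box in 2 (5.41%) and in 12.4% of all, and the AP-1 letters in 1, of Adam19 (2.70%), and in 6.75% of all. The windows of members had a median GC content of 63.2%, against 52.4% for all windows. The latter cover 27025 genes, more than the 16862 of the deposited table. What part GC content takes in these shares was not tested. The GC box was found at 6 of 10 starts of higher members, at 3 of 5 of lower members and at 14 of 20 of members not past the threshold.

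Among the ADAM sheddases, 4 of 8 (50%) rose and 0 fell by limma's test, where 17.3% and 17.0% of all genes did. Their median transcript length was 4256.5 nt, and 38.2% of all genes with transcripts of at least 4000 nt were higher. With the length and GC trend removed, 1 of the 8 sheddases was higher. Of this group, 1 further member, Adam15, had an unadjusted p under 0.05. The 3 ADAMs without protease activity and the 5 tested ADAMs of germ cells and sperm had no call and no unadjusted p under 0.05. Adam10 (NCBI gene 11487, chromosome 9 from 70526808 to 70628036 in mm9), the protease that cleaves Notch receptors and cadherins, stood at 3299, 4072 and 3599 in wild type and at 4842, 5858 and 5036 in knockout (in the order WT1, WT3, WT4 and KO5, KO7, KO8, which is kept below). Every knockout library was above every wild-type library. It rose 1.43-fold in the fitted ratio (log2 change 0.52, SE 0.11, adjusted p = 0.00523). Without the length and GC trend, its log2 change stood at 0.09 (adjusted p = 0.424).

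Adam17 (NCBI gene 11491, chromosome 12 from 21329469 to 21379452), which releases TNF and ligands of the EGF receptor, stood at 1474, 1662 and 1509.7 in wild type and at 2096, 1943 and 2018 in knockout. The groups were apart (log2 change 0.38, SE 0.09, adjusted p = 0.00788). Its log2 change was 0.05 (adjusted p = 0.721) once the trend was taken out. Adam9 (NCBI gene 11502, chromosome 8 from 26060083 to 26127394), a broadly expressed sheddase, stood at 544, 699 and 564 in wild type and at 953, 1072 and 887 in knockout, again with no overlap (log2 change 0.69, SE 0.12, adjusted p = 0.00315). Its call was kept without each library in turn and also without the trend, at a log2 change of 0.44 (adjusted p = 0.0201). Adam19 (NCBI gene 11492, chromosome 11 from 45869489 to 45960844), needed for heart development and able to release neuregulin, stood at 1525, 1966 and 1492 in wild type and at 2325, 2182 and 2114 in knockout (log2 change 0.42, SE 0.11, adjusted p = 0.0172). Its call ended without WT4 (adjusted p = 0.079) or KO5 (0.0704), and without the trend its log2 change stood at 0.22 (adjusted p = 0.162).

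The other 4 sheddases were not past the threshold. Adam15 stood at 923, 987 and 876 in wild type and at 803, 646 and 828 in knockout, lower in each knockout library than in each wild-type library (log2 change -0.30, SE 0.12, adjusted p = 0.0723). Adam12, Adam8 and Adam33 overlapped between genotypes, with log2 changes of 0.08, 0.11 and -0.25. Adam33 was highest in WT1, at 203.7 against 86.2 to 116.4 in the other 5, and its log2 change without that library was 0.11 (adjusted p = 0.731). Adam11, Adam22 and Adam23, whose products bind LGI proteins at neurons and do not cleave, had log2 changes of -0.13, 0.17 and 0.10 (adjusted p from 0.554 to 0.733). Adam1a, Adam2, Adam4, Adam5 and Adam21, known from sperm, were low, with at most 105.0 in any library (Adam4 and Adam21 reached 10 in 1 WT and 2 KO libraries), and Adam7 and Adam32 stayed below the filter with at most 9.16.

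ADAMTS proteases held the steepest changes. Adamts12 (NCBI gene 239337, chromosome 15 from 10994545 to 11276622), which can cleave cartilage oligomeric matrix protein (COMP), stood at 15.2, 29.0 and 14.8 in wild type and at 60.3, 91.7 and 144 in knockout. The lowest knockout library held more than the highest wild-type library, and its mean was 19.6 ± 8.08 in wild type against 98.8 ± 42.4 in knockout (SD, n = 3 each). It rose 4.76-fold in the fitted ratio (log2 change 2.25, SE 0.37, adjusted p = 0.00242). This call was kept under all 17 alternatives tried, with an adjusted p of at most 0.0178, and the log2 change with the trend on length and GC content removed was 1.79 (adjusted p = 0.0135). Adamts6 (NCBI gene 108154, chromosome 13 from 105077953 to 105284843), a relative of Adamts10 linked to fibrillin matrix, stood at 14.6, 12.8 and 1.49 in wild type and at 33.7, 59.6 and 58.0 in knockout. It was low in wild type, where 1 of 3 libraries was under the filter value of 10, and the knockout libraries were all above it (log2 change 2.62, SE 0.63, adjusted p = 0.0107). The rise was 6.15-fold on the log2(value + 1) scale and 5.25-fold in the ratio of group means. The call was kept without each library in turn, with a log2 change from 1.77 to 3.09, while after removal of the trend the log2 change was 2.12 (adjusted p = 0.0602) and, with WT1 also left out, 2.61 (adjusted p = 0.0145).

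Of the 7 proteoglycanases, which cut versican and aggrecan, 3 rose (42.9%) and 0 fell by limma's test, where 17.3% and 17.0% of all genes did. Their median transcript length was 5928 nt, and 38.2% of all genes with transcripts of at least 4000 nt were higher. With the length and GC trend removed, 0 of the 7 were higher. Adamts9 (NCBI gene 101401, chromosome 6 from 92722693 to 92851435) stood at 1728, 2042 and 1722 in wild type and at 2509, 2894 and 2813 in knockout. All knockout libraries were above all wild-type ones, and the call was kept without each library in turn (log2 change 0.58, SE 0.10, adjusted p = 0.00264). Adamts1 (NCBI gene 11504, chromosome 16 from 85794073 to 85803360), a versicanase known from ovulation, stood at 794, 885 and 674 in wild type and at 970.5, 1201 and 1186 in knockout (log2 change 0.51, SE 0.13, adjusted p = 0.0119). Its groups were apart, and its call ended without WT4 (adjusted p = 0.0555). Adamts20 (NCBI gene 223838, chromosome 15 from 94100594 to 94234781), the gene of the belted mouse, stood at 124, 97.6 and 94.6 in wild type and at 159, 203 and 158 in knockout, without overlap (log2 change 0.71, SE 0.19, adjusted p = 0.015). The adjusted p was 0.0594 without WT4 and 0.0577 without KO7. With the trend removed, the log2 change was 0.22 (adjusted p = 0.0627) for Adamts9, 0.28 (adjusted p = 0.112) for Adamts1 and 0.33 (adjusted p = 0.281) for Adamts20.

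The other 4 proteoglycanases did not pass. Adamts4 stood at 74.0, 75.8 and 54.5 in wild type and at 87.8, 85.9 and 102 in knockout, apart between genotypes (log2 change 0.44, SE 0.21, adjusted p = 0.134). Adamts5 and Adamts8 overlapped, with log2 changes of 0.26 and -0.20. Adamts15 had the most negative log2 change of all members and no call, at 421, 131 and 163 in wild type and at 120.4, 146 and 102 in knockout (log2 change -0.77, SE 0.36, adjusted p = 0.126). Its value in WT1, where the skeletal muscle markers were high, was 2.86 times the mean of the other wild-type libraries, and without that library the log2 change was -0.26 (adjusted p = 0.353), whereas it passed without WT3 (log2 -1.10, adjusted p = 0.0367). The part of the muscle signal in this value was not tested. Adamts5 passed without WT1 (log2 0.42, adjusted p = 0.0456), but its sign was the other way with the trend removed, at log2 -0.31 (adjusted p = 0.2), and at -0.15 with WT1 left out too.

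Of the 3 procollagen N-propeptidases, which trim fibrillar procollagens, 1 fell, where 17.0% of all genes were lower. Adamts14 (NCBI gene 237360, chromosome 10 from 60659860 to 60736186) stood at 496, 437 and 449 in wild type and at 335, 313 and 397 in knockout. Each knockout library was below each wild-type library (log2 change -0.41, SE 0.13, adjusted p = 0.0334). The change was about as large with the trend removed, at -0.40 (adjusted p = 0.0501), and it is the lower member with the longest transcript, 5188 nt. Its call ended without WT1 (adjusted p = 0.0827), WT4 (0.0806), KO5 (0.108) or KO7 (0.0887), and with equal totals (log2 -0.31, adjusted p = 0.0927). Adamts2, at 1031 ± 50.4 in wild type against 1045 ± 113 in knockout (SD, n = 3 each), and Adamts3, at 91.9 ± 11.7 in wild type against 99.3 ± 13.2 in knockout (SD, n = 3 each), did not pass (adjusted p = 0.918 and 0.688).

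Beside Adamts6 and Adamts12, 6 other ADAMTS genes of the remaining group were tested and none passed. Adamts16, a gene known from the developing gonad, stood at 1344, 2596 and 2308 in wild type and at 2993, 2462 and 3071 in knockout, with WT1 the lowest of all (log2 change 0.50, SE 0.21, adjusted p = 0.0875). Its log2 change was 0.21 without that library (adjusted p = 0.216) and 0.68 without WT3 (adjusted p = 0.0277). WT1 also held less of the summed Sertoli cell markers, 0.752 times the mean of the other wild-type libraries, and the part of this was not tested. Adamts19 stood at 321, 211 and 177 in wild type and at 298, 399 and 249.6 in knockout (log2 change 0.43, SE 0.23, adjusted p = 0.176) and passed without WT1 (log2 0.68, adjusted p = 0.0182). Adamts7, Adamts10 and Adamts17 had log2 changes of 0.05, -0.08 and 0.12, and Adamts18 had 0.39 with at most 37.6 in any library. Adamts13, the protease of von Willebrand factor, was below the filter at 7.44 or less. The 5 Adamts-like genes, which encode matrix proteins without a protease domain, had no call, and 1 had an unadjusted p under 0.05. That was Adamtsl2, at 249, 215 and 172 in wild type and at 133, 128 and 181 in knockout (log2 change -0.53, SE 0.20, adjusted p = 0.0612), which passed without KO8 (log2 -0.68, adjusted p = 0.0333). Adamtsl5, at 57.1, 21.1 and 59.3 in wild type and at 30.6, 24.0 and 20.6 in knockout, passed without WT3 (log2 -1.20, adjusted p = 0.0158).

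**Figure D3:**
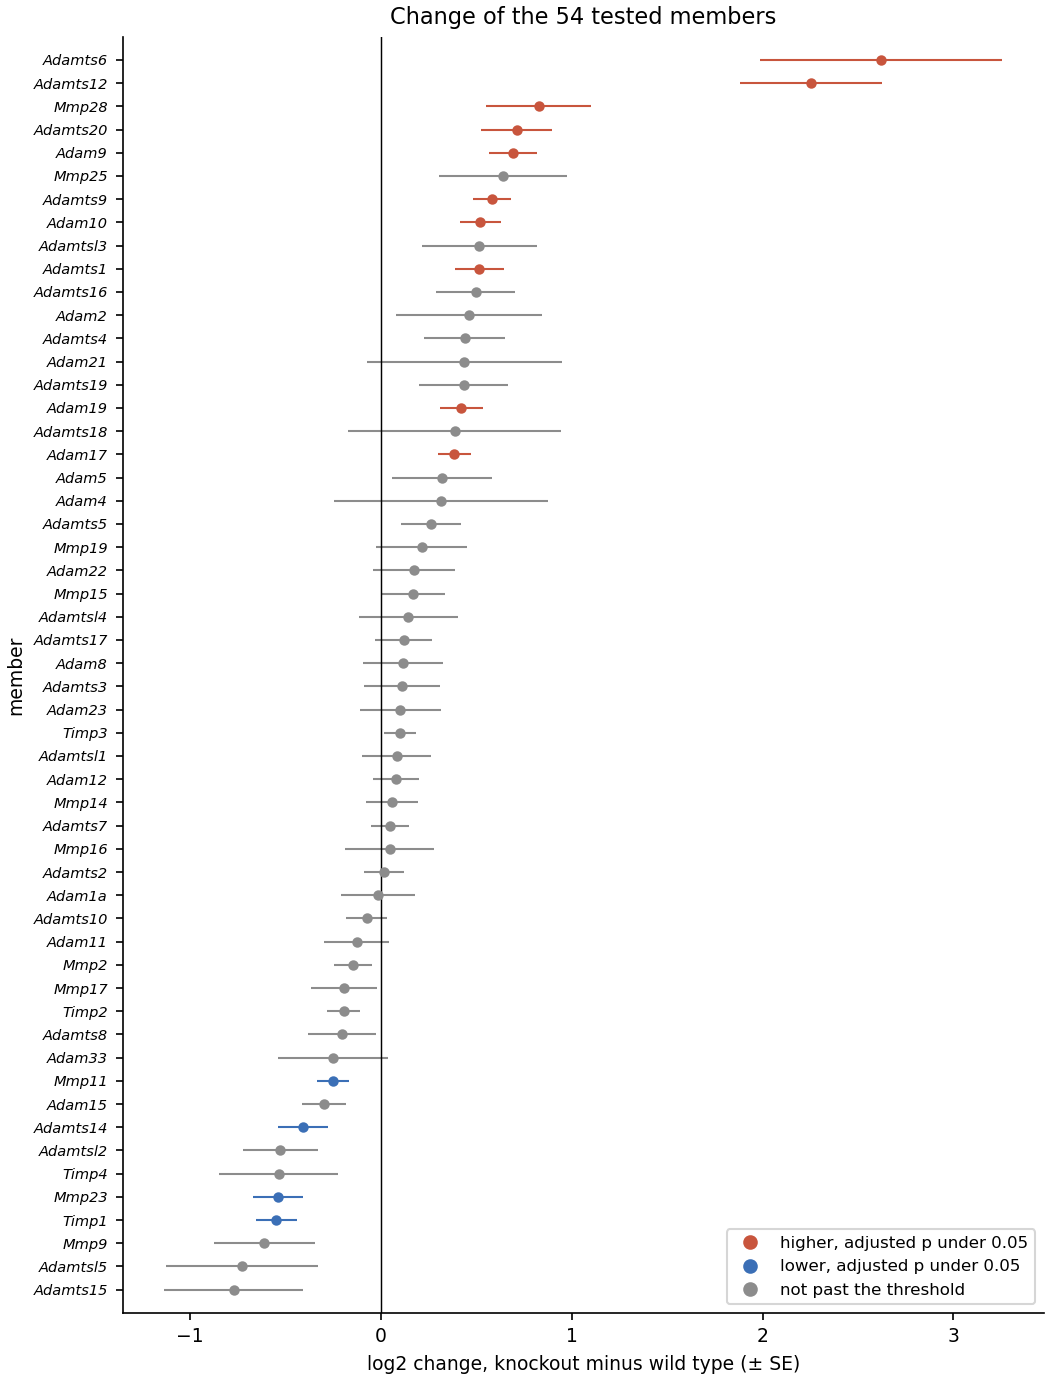
Log2 change of knockout against wild type with its SE for each of the 54 tested members, ordered by size, with members past the threshold in red (higher) and blue (lower). Adamts6 and Adamts12 stand at 2.62 and 2.25, and the other members lie between -0.77 and 0.83.

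Among MMPs, 1 of 11 tested members rose (9.09%) and 2 fell (18.2%), where 17.3% and 17.0% of all genes did. Per kb of transcript, Mmp2, the gelatinase that cleaves type IV collagen, had the highest wild-type level of all members, 4219, followed by Timp1 at 3532, Mmp11 at 2047, Mmp14 at 1275 and Timp2 at 1237. Mmp2 (NCBI gene 17390, chromosome 8 from 95351227 to 95377319) stood at 13660.2, 13264 and 12037 in wild type and at 10974, 11229.6 and 13062 in knockout. The groups overlapped (log2 change -0.15, SE 0.10, adjusted p = 0.287). Mmp14 (NCBI gene 17387, chromosome 14 from 55050441 to 55060095), the membrane-type MMP that activates the Mmp2 precursor together with Timp2, stood at 3648, 4634 and 4101 in wild type and at 4342, 3521 and 5113 in knockout, with overlap as well (log2 change 0.06, SE 0.14, adjusted p = 0.768). Its log2 change was -0.03 without WT1 and -0.07 without KO8. The other 4 membrane-type members, Mmp15, Mmp16, Mmp17 and Mmp25, also had no call, and of the 5 none had an unadjusted p under 0.05.

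Mmp28 (epilysin; NCBI gene 118453, chromosome 11 from 83255378 to 83276463) was the member that rose, and its groups overlapped. It stood at 68.1, 139 and 104 in wild type and at 186, 133 and 225 in knockout, with KO7 below WT3 (log2 change 0.83, SE 0.28, adjusted p = 0.0407). The log2 change was 0.99 (adjusted p = 0.0365) with the trend removed. The call ended without WT1 (log2 0.56, adjusted p = 0.0769), WT4 (0.0894), KO5 (0.116) or KO8 (0.137). Mmp23 (NCBI gene 26561, chromosome 4 from 155024764 to 155027493), an MMP released from the membrane by its own cleavage, fell, and stood at 1289, 1133 and 1318 in wild type and at 938, 694 and 961 in knockout (log2 change -0.54, SE 0.13, adjusted p = 0.0116). The groups were apart, and the call ended without WT4 (adjusted p = 0.0532). Mmp11 (stromelysin 3; NCBI gene 17385, chromosome 10 from 75385969 to 75395208), a protease of stromal cells, stood at 4811, 4763 and 4478 in wild type and at 3864, 3774 and 4175 in knockout, with the groups apart (log2 change -0.25, SE 0.08, adjusted p = 0.0378). That call was kept without KO8 and ended without each of the other 5 libraries (adjusted p from 0.0667 to 0.123) and with equal totals (log2 -0.15, adjusted p = 0.201). With the trend removed, the log2 change was -0.02 (adjusted p = 0.922) for Mmp23 and 0.07 (adjusted p = 0.555), the other way, for Mmp11.

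Low MMPs included those known from neutrophils. Mmp9 (gelatinase B) stood at 48.4, 84.3 and 67.2 in wild type and at 44.9, 36.9 and 45.5 in knockout, with every knockout library below every wild-type library and no call (log2 change -0.61, SE 0.26, adjusted p = 0.0957). It passed without WT1 (log2 -0.82, adjusted p = 0.0265). Mmp25 stood at 15.2, 20.4 and 17.5 in wild type and at 29.6, 19.8 and 37.4 in knockout (log2 change 0.64, SE 0.34, adjusted p = 0.164), and Mmp8, the neutrophil collagenase and the 1 collagenase in the table, was below the filter at 5.49, 1.10 and 5.67 in wild type and at 9.19, 10.2 and 11.3 in knockout, with each KO library above each WT library. The 5 neutrophil markers (Elane, Mpo, Ltf, S100a8 and S100a9) summed to 471 to 804 in the WT libraries and to 299 to 466 in the KO libraries. By limma's test 2 of 5 were lower and 0 higher, where 17.0% and 17.3% of all genes were. The 2 were Elane and Mpo, whose calls ended with the trend removed (adjusted p = 0.102 and 0.0535). Ltf went the other way without a call (log2 change 0.50, adjusted p = 0.49). The part of the neutrophil markers in the Mmp9 values was not tested. Mmp19 stood at 57.2 ± 2.06 in wild type against 67.7 ± 15.4 in knockout (SD, n = 3 each) (adjusted p = 0.509).

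**Figure D4:**
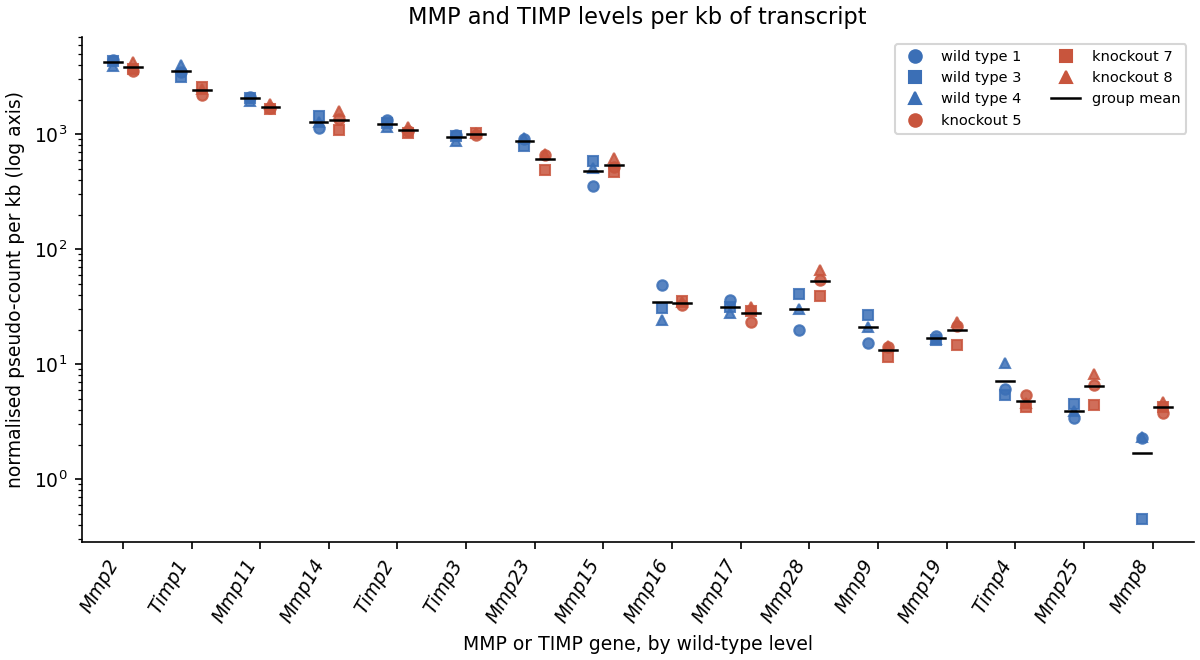
Normalised pseudo-counts per kb of the longest protein-coding transcript (log axis) of the 12 MMP and 4 TIMP genes, 1 point per library and a bar at each group mean, ordered by wild-type mean. Mmp2 had the highest wild-type mean, 4219 per kb, and the Timp1 knockout libraries lie below its wild-type libraries.

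Of the 4 inhibitors, Timp1 fell and the other 3 did not pass the test. Timp1 (NCBI gene 21857, chromosome X from 20447292 to 20451863), a secreted inhibitor of most MMPs, stood at 3063, 2755 and 3539.6 in wild type and at 1935, 2246 and 2200.3 in knockout. Every knockout library was below every wild-type library, and the mean was 3119 ± 395 in wild type against 2127 ± 168 in knockout (SD, n = 3 each). Wild type was 1.46-fold above knockout in the fitted ratio (log2 change -0.55, SE 0.11, adjusted p = 0.00454). The call was kept without each library in turn (log2 change from -0.63 to -0.45) and with equal totals (-0.45, adjusted p = 0.00795). With the length and GC trend removed, the log2 change was -0.04 (adjusted p = 0.754). Timp1 has the shortest transcript of all tested members, 883 nt.

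Timp2 (NCBI gene 21858, chromosome 11 from 118162375 to 118216725), which inhibits MMPs and also takes part in Mmp2 activation, stood at 4874, 4590.0 and 4299 in wild type and at 3958, 3785 and 4271 in knockout. Its groups were apart, without passing the threshold (log2 change -0.20, SE 0.09, adjusted p = 0.108). Timp3 (NCBI gene 21859, chromosome 10 from 85763157 to 85812250), which is bound to matrix and also inhibits Adam17, stood at 4653, 4548 and 4156 in wild type and at 4645, 4863 and 4801 in knockout, with overlap (log2 change 0.10, SE 0.08, adjusted p = 0.364). Its log2 change stood at -0.21 (adjusted p = 0.0669) without the trend, the other way. Timp4 (NCBI gene 110595, chromosome 6 from 115195634 to 115201867) was low, at 33.3, 29.4 and 56.0 in wild type and at 29.6, 23.1 and 25.4 in knockout (log2 change -0.54, SE 0.31, adjusted p = 0.21). The 4 TIMP values summed to 12623, 11923 and 12051 in wild type and to 10568, 10917 and 11298 in knockout, sums in which Timp2, Timp3 and Timp1 weigh most. The sum over all genes was also lower in every KO library (21657342 to 21846849) than in every WT library (22881124 to 23734462).

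In the deposited coordinates, 3 of the TIMP genes lie inside synapsin genes, Timp1 in Syn1, Timp4 in Syn2 and Timp3 in Syn3, and Timp2 overlaps BC100451. These are overlaps of whole gene spans. Overlap of exons was not examined, and the strand used in counting is not given in the sources used here, so how reads of such pairs were divided is uncertain. Syn1 averaged 177.9 in wild type and 112 in knockout, small beside Timp1, while Syn2 at 23.5 and 19.0 was about as low as Timp4 at 39.5 and 26.0.

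**Figure D5:**
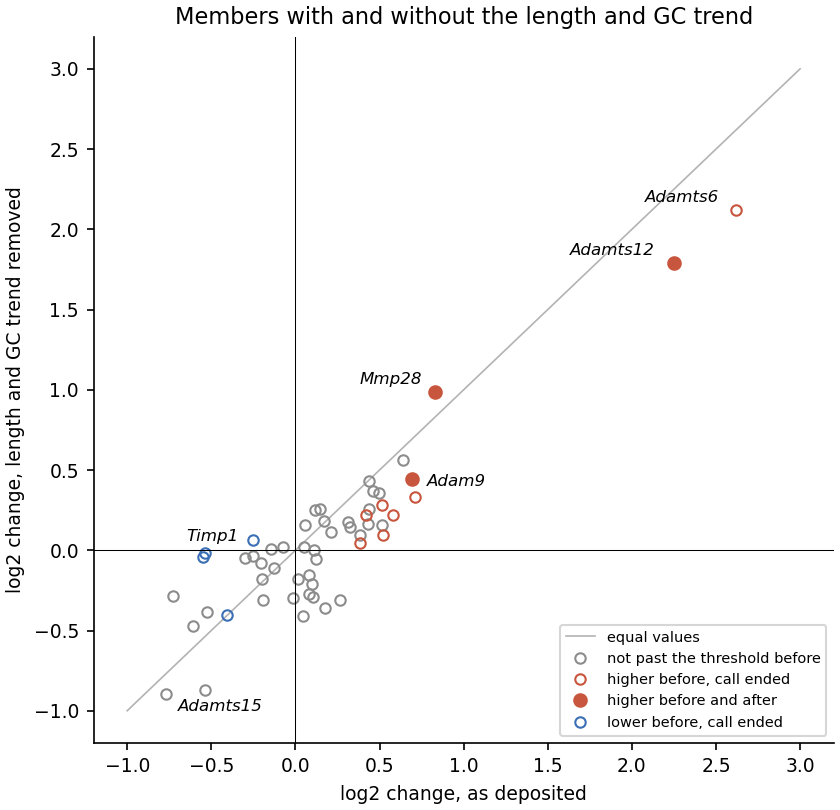
Log2 change of each tested member as deposited (horizontal) and after the length and GC trend was removed from each library (vertical); filled points passed the threshold after removal. Adamts12, Mmp28 and Adam9 are the 3 filled points, and Timp1 moved from -0.55 to -0.04.

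Genes that work with these proteases were taken from a list of 70 activators, inhibitors, binding partners, substrates and other matrix enzymes, of which 63 were tested. Of these, 7 were higher (11.1%) and 12 lower (19.0%), where 17.3% and 17.0% of all genes were. The same shares of all genes apply to the parts of the list below. Among 15 tested substrates and clearance genes 3 rose (20%) and 0 fell. Vcan, the proteoglycan versican that ADAMTS proteases cut, stood at 2757, 3063 and 2195 in wild type and at 3856, 4669 and 3938 in knockout (log2 change 0.65, SE 0.13, adjusted p = 0.00464), and Kitl, the stem cell factor released from cells by proteolysis, at 1468, 2087 and 2025 in wild type and at 3489.9, 4121 and 3469.7 in knockout (log2 change 1.00, SE 0.14, adjusted p = 0.00166). In both, every knockout library was above every wild-type one. With the trend removed, the log2 change was 0.07 (adjusted p = 0.633) for Vcan and 0.44 (adjusted p = 0.0297) for Kitl. The third was Fbn2, a fibrillin (log2 change 0.44, SE 0.12, adjusted p = 0.018), whose call ended with the trend removed, at log2 0.14 (adjusted p = 0.337). It was named like the genes of the next sentences after its value was seen.

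Of 17 genes of plasminogen activation and MMP control, 1 rose and 1 fell (5.88% each). The former was Reck, a membrane-anchored inhibitor of MMPs (log2 change 0.42, SE 0.10, adjusted p = 0.0106), and the latter was Bsg (basigin), an inducer of MMPs (log2 change -0.53, SE 0.11, adjusted p = 0.00597). Their log2 changes were 0.19 (adjusted p = 0.161) and -0.04 (adjusted p = 0.751) with the trend removed. Of 15 ADAM partners 0 rose and 4 fell (26.7%) by limma's test, while 5 changes in all had an unadjusted p under 0.05. The 4 were Tspan17, a tetraspanin that carries Adam10 to the surface, Lgi3, Pacsin3 and Rhbdf1, an iRhom that brings Adam17 to the surface. Tspan17 stood at 293, 279 and 359 in wild type and at 211, 169 and 212 in knockout (log2 change -0.65, SE 0.16, adjusted p = 0.011), a call that ended without WT4 (adjusted p = 0.0554) and also without the trend, at a log2 change of -0.15 (adjusted p = 0.5).

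Of 16 other matrix enzymes 3 rose (18.75%) and 7 fell (43.75%). Mme (neprilysin), a membrane metallopeptidase, stood at 549.9, 761 and 722 in wild type and at 1292, 1174 and 1259 in knockout (log2 change 0.89, SE 0.13, adjusted p = 0.00181), and its log2 change stood at 0.21 (adjusted p = 0.39) without the trend. Tll1, a procollagen C-proteinase, and Hyal1, a hyaluronidase, were low and also rose. Tll1 stood at 17.3, 12.3 and 8.13 in wild type and at 25.5, 24.7 and 27.8 in knockout (log2 change 1.05, SE 0.36, adjusted p = 0.0447), and Hyal1 at 18.1, 18.6 and 14.1 in wild type and at 35.7, 26.5 and 40.2 in knockout (log2 change 0.96, SE 0.31, adjusted p = 0.035), each without overlap. Without the trend the Tll1 call ended, at log2 0.74 (adjusted p = 0.22), and the Hyal1 call was kept, at log2 1.05 (adjusted p = 0.049). Both lost their calls without WT4, KO5 or KO8 (adjusted p from 0.109 to 0.146), and Tll1 also without WT3 (0.069) or KO7 (0.093).

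Htra1, a secreted serine protease, stood at 2540.1, 2562 and 2391 in wild type and at 1375, 1590.2 and 1606 in knockout, and Hyal2, a hyaluronidase of the cell surface, at 3408, 3675 and 3946 in wild type and at 2396, 2076 and 2582 in knockout. In both, every knockout library was below every wild-type library (log2 change -0.72, SE 0.09, adjusted p = 0.00143 for Htra1; log2 change -0.65, SE 0.10, adjusted p = 0.0021 for Hyal2). Both calls were kept without each library in turn and with the trend removed, where the log2 change was -0.36 (adjusted p = 0.0392) for Htra1 and -0.48 (adjusted p = 0.00644) for Hyal2. Ctsk (cathepsin K), a collagen-degrading protease, and Fap, a serine protease of activated fibroblasts, also fell. Ctsk stood at 291, 231 and 287 in wild type and at 172, 207 and 132 in knockout (log2 change -0.68, SE 0.19, adjusted p = 0.0202), and Fap at 206, 109 and 128 in wild type and at 70.4, 106 and 53.0 in knockout (log2 change -0.94, SE 0.30, adjusted p = 0.0342), each without overlap. Without the trend the Ctsk call ended, at log2 -0.45 (adjusted p = 0.11), and that of Fap was kept, at log2 -1.14 (adjusted p = 0.0249). The call of Ctsk ended without WT4, KO5 or KO8 (adjusted p from 0.0556 to 0.077), and that of Fap without these or WT1 (0.0702 to 0.112). The other 3 that fell were Pcolce, Htra3 and Ctsb. With the trend removed, the log2 change turned to 0.02 (adjusted p = 0.905) for Pcolce and was -0.15 (adjusted p = 0.531) for Htra3 and -0.53 (adjusted p = 0.00438) for Ctsb. The calls of Lgi3, Pacsin3 and Rhbdf1 ended there as well (adjusted p from 0.185 to 0.925). Tspan5 (an ADAM partner), Ctsl and Dpp4 had no call before (adjusted p = 0.583, 0.301 and 0.0613) and were lower with the trend removed. Their log2 changes were then -0.41 (adjusted p = 0.00619), -0.62 (adjusted p = 0.0139) and -1.08 (adjusted p = 0.0145). Without WT1, whose muscle markers were high, the adjusted p was 0.115 for Htra3, 0.0617 for Ctsb, 0.111 for Rhbdf1, 0.0732 for Pacsin3 and 0.0516 for Lgi3, and these 5 calls ended too.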

How the data were processed

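Gene expression was measured by RNA sequencing of 6 libraries. The deposited table holds, per gene, a signal made by the authors, upper-quartile normalised pseudo-counts. CASAVA 1.8.2, edgeR 2.6.2 and the build mm9 are named, without a role, in the submitters' processing notes. Annotation, aligner and strand of counting: not given in the sources used here. No depth or counting interval can be given. All 6 value columns matched a library by name, and 0 of 15 pairs of libraries were identical.

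The main test was that of limma 3.58.1 in R 4.3.3, with a mean-dependent prior, on log2(value + 1) of all 15116 genes with at least 10 in at least 3 libraries. The added 1 shrinks the fold changes of low genes. A fitted fold can still exceed the ratio of group means, as for Adamts6 (6.15 against 5.25). P-values measure the spread between these libraries. An exact permutation test of 3 against 3 cannot go below p = 0.1. Transcript length and GC content came from GENCODE vM21 (14449 genes, 95.6%), and their trend was removed with natural splines of 4 degrees of freedom. Figures were drawn with matplotlib 3.10.9.

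The members, lists and alternatives were chosen with earlier results of these data known. Full values were given by rule for up to 12 higher and 12 lower members past the threshold, 10 central members and 5 partner genes in each direction; other members are named with fewer values or as examples. The alternatives were pseudocounts of 0.5, 5 and 10, no filter and a filter at 50, scaling to equal totals or by the median of ratios, library weights, a constant prior, leave-one-out fits for each library, and removal of the length and GC trend.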

Additional observations from a re-analysis of the deposited data

How the results depend on the processing

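No paired analysis was run, because the labels do not say which embryos shared a litter. The replicate numbers, which differ between wild type and knockout, do not settle this. The counts of members (10 higher, 4 lower) and of partner genes (7 higher, 12 lower) were within 1.5 times of these under the pseudocounts, both filters and the median of ratios. Under equal totals 2 members and 7 partner genes were lower, and with no mean-dependent prior 7 partner genes were lower. Library weights gave 14 higher members, the 10 reported with Mmp25, Adamtsl3, Adamts16 and Adamts19, and 8 lower, the 4 reported with Timp2, Adamtsl2, Mmp9 and Adamts15. With 1 library left out, 6 to 11 members were higher and 1 to 5 lower, and 3 to 10 partner genes were higher and 5 to 12 lower; the lowest counts of members came without WT4. With the length and GC trend removed, 3 members were higher and 0 lower, and 2 partner genes were higher and 7 lower. Of these 7, Htra1, Hyal2, Fap and Ctsb were among the 12 reported as lower, and Tspan5, Ctsl and Dpp4 were new. With WT1 also left out the counts were 4, 0, 3 and 7. The first removal turned the sign of 12 members, among them Mmp11 (0.0655, and 0.0772 without WT1), Timp3 (-0.21 and -0.16) and Mmp2 (0.00718 and 0.0449), and that of Mmp14 turned without WT1 or KO8 (with 1 library left out, from -0.0711 to 0.198). The cause of these shifts was not tested. With 3 libraries a group and no depth, changes of low genes are the least certain.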

Other observations

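Several members lie beside each other on a chromosome (mm9, coordinates of the deposited table). Adamts1 and Adamts5 on chromosome 16 are 55.04 kb apart, and their log2 changes were 0.51 (SE 0.13) and 0.26 (SE 0.16). Adamts15 and Adamts8 on chromosome 9, 20.1 kb apart, had -0.77 (SE 0.36) and -0.20 (SE 0.18), and in both WT1 held the highest of the 6 values. Adam32 ends 0.807 kb before Adam9 on chromosome 8, with Adam5 next to it; Adam9 averaged 602 in wild type and 971 in knockout, Adam5 34.3 and 42.9, and Adam32 7.04 and 6.81.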
